A study of Mus with 4 samples.

Results

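The genes described here are 32 genes of cholesterol synthesis and sterol regulation, chosen by name: enzymes of the mevalonate and sterol pathways, the SREBP regulators, and genes of sterol transport, storage and efflux. Of the 32, 27 had a row in the deposited array table that names only that gene, out of 30627 genes with such a row. The other 5 (Acat2, Nr1h2 and Soat1, and Tm7sf2 and Srebf1, which share their row with another gene) are not analysed here. All 27 lay above the filter on low values and were tested among 16474 genes.

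Cells build cholesterol from acetyl-CoA through mevalonate, isoprenoid diphosphates, squalene and lanosterol. When sterol in the endoplasmic reticulum is low, the escort protein SCAP carries the SREBP transcription factors to the Golgi, where they are cut and released to switch on the pathway, and when sterol is high the INSIG proteins hold SCAP back. Excess sterol takes the opposite course through the oxysterol receptors LXR, which turn on the exporters Abca1 and Abcg1. Activated lymphocytes are known to raise sterol synthesis as they grow.

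Total RNA came from DX5- natural killer (NK) cells sorted from the liver of female mice aged 6 to 8 weeks, with 2 Affymetrix arrays of WT C57BL/6 mice and 2 of dnTGFbRII mice on the same strain. DX5 is an antibody to the integrin chain encoded by Itga2, and liver NK cells that lack it are regarded as tissue-resident. dnTGFbRII mice carry a dominant-negative TGF-beta receptor II and develop liver inflammation, and the study asked how resident NK cells change in that setting. The labels do not give the promoter of the transgene. The widely used line of this name expresses it from the Cd4 promoter, so NK cells need not carry it. The labels do not state whether arrays of the same genotype hold RNA of different animals, so the p-values rest on the spread between arrays, part or all of which may be technical.

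The 4 arrays had medians between 4.20 and 4.26 on the log2 scale, and rows named as background probes had medians between 2.94 and 3.11. Of 14 NK and type 1 innate lymphoid markers, 13 were tested, and Ncr1, which encodes the activating receptor NKp46, lay between 16.87 and 17.19 on all arrays. In the same list Eomes, the T-box factor of circulating NK cells, lay at 6.78 and 6.81 in WT and at 10.30 and 8.87 in dnTGFbRII cells (limma unadjusted p = 0.00318, adjusted p = 1). The groups did not overlap, and its part in the sterol values was not tested. Itga2 itself lay at 8.32 and 8.56 in WT and at 9.06 and 8.83 in dnTGFbRII cells, above the highest background row (6.21). Of the 27 sterol genes, 20 lay above the highest background row of every array. The other 7, all enzymes (Mvk, Pmvk, Idi1, Fdft1, Sqle, Lss and Hsd17b7), lay below it on 1 or 2 arrays. WT replicate 1 stood apart by its dendritic cell markers. Their mean level over the 12 tested genes was 9.69 there, 8.10 on WT replicate 2, and 7.21 and 7.16 on the dnTGFbRII arrays. Where values rested on this array, the difference from WT replicate 2 alone is given as well.

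Cholesterol synthesis enzymes measured lower in DX5- NK cells from dnTGFbRII mice than in WT cells, while transport and efflux genes lay close to 0 difference. Of 17 enzymes, 14 had a negative difference (dnTGFbRII minus WT), against 52.5% of all genes tested, and their median difference was -0.23, against -0.01 over all genes. On 7 of the 17 both dnTGFbRII arrays lay below both WT arrays, a pattern seen in 14.5% of all genes tested. No member passed the threshold: with limma and Benjamini-Hochberg adjustment over all genes tested, 0% of genes were called, and every member had an adjusted p of 1. At an unadjusted p under 0.05, 2 members were lower and 0 higher, against 1.30% and 1.97% of all genes. Without WT replicate 1 the enzymes' median was -0.10 with 11 of 17 negative, against 50.9% of all genes, and without WT replicate 2 it was -0.35 with 15 of 17 negative. With 2 arrays on each side, the smallest p that an exact 2-sided permutation test allows is 0.333. Single genes are therefore given with the standard error (SE) of the limma fit.

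**Figure D1:**
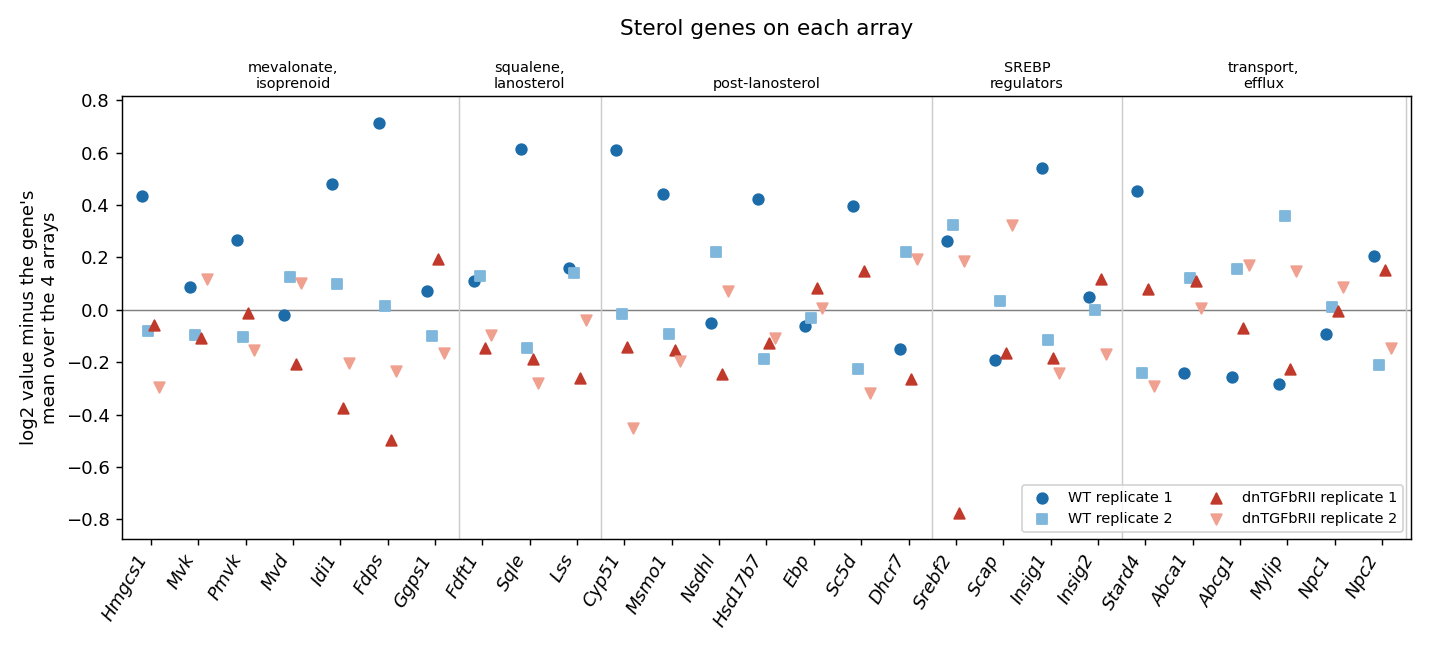
Log2 value of each of the 27 tested sterol genes on each of the 4 arrays, minus that gene's mean over the 4 arrays (y axis), with genes ordered by step (x axis). WT replicate 1 is the highest array for 10 of the 17 synthesis enzymes, and dnTGFbRII replicate 1 lies far below the other arrays for Srebf2.

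The first enzymes turn acetyl-CoA into mevalonate and then into the isoprenoid building blocks. Hmgcs1, which makes HMG-CoA, lay at 7.17 and 6.65 on WT replicates 1 and 2 and at 6.67 and 6.44 on the dnTGFbRII arrays. WT replicate 1 alone was high, and WT replicate 2 lay between the dnTGFbRII arrays. The difference was -0.35 ± 0.22 (SE), and -0.10 against WT replicate 2 alone. The kinases that phosphorylate mevalonate overlapped between genotypes. Mvk, the first of them, lay at 6.18 and 6.00 in WT and at 5.98 and 6.21 in dnTGFbRII cells (difference 0.01 ± 0.15), a sign that turned when each array was centred on its median. Pmvk, the second, lay at 5.96 and 5.59 in WT and at 5.68 and 5.54 in dnTGFbRII cells (-0.17 ± 0.18). Mvd, the decarboxylase that follows, lay at 6.52 and 6.67 in WT and at 6.34 and 6.65 in dnTGFbRII cells (-0.11 ± 0.16). In each of these genes the difference was smaller than its standard error.

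The isoprenoid steps held the lowest unadjusted p-values of the members. Idi1, the isomerase that makes dimethylallyl diphosphate, lay at 6.88 and 6.50 in WT and at 6.02 and 6.20 in dnTGFbRII cells. Both dnTGFbRII arrays were below both WT arrays, with a difference of -0.58 ± 0.18, a 1.49-fold lower level (limma unadjusted p = 0.0286, adjusted p = 1). Fdps, which joins isoprenoid units to farnesyl diphosphate, lay at 8.51 and 7.81 in WT and at 7.30 and 7.56 in dnTGFbRII cells. Its groups did not overlap either, but WT replicate 1 was far above the other 3 arrays. The difference was -0.73 ± 0.27, a 1.66-fold lower level (limma unadjusted p = 0.0495, adjusted p = 1), and -0.38 against WT replicate 2 alone. Ggps1, which extends farnesyl to geranylgeranyl diphosphate for protein prenylation and so leads away from sterols, did not follow. It lay at 9.89 and 9.72 in WT and at 10.01 and 9.65 in dnTGFbRII cells (0.03 ± 0.18), with the groups overlapping. Of the 7 tested enzymes of this first step 5 had a negative difference, with a median of -0.17 (-0.10 without WT replicate 1 and -0.35 without WT replicate 2).

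All 3 enzymes that commit farnesyl diphosphate to sterols lay below both WT arrays on both dnTGFbRII arrays, a pattern seen in 14.5% of all genes tested. Fdft1, squalene synthase, lay at 6.18 and 6.20 in WT and at 5.92 and 5.97 in dnTGFbRII cells. Lss, lanosterol synthase, lay at 5.90 and 5.88 in WT and at 5.48 and 5.70 in dnTGFbRII cells. For both genes the WT arrays nearly coincided, so their differences (-0.24 ± 0.12 for Fdft1 and -0.30 ± 0.14 for Lss) were nearly the same against WT replicate 2 alone (-0.25 and -0.29). Sqle, the oxygen-dependent squalene epoxidase that is a rate-limiting step, lay at 6.48 and 5.72 in WT and at 5.68 and 5.59 in dnTGFbRII cells. There WT replicate 2 was just above the dnTGFbRII arrays, and the difference of -0.47 ± 0.28 became -0.09 against WT replicate 2 alone. The median of the 3 enzymes was -0.30. All 3 lay below the highest background row on 1 or 2 arrays.

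After lanosterol the enzymes divided. Cyp51, the lanosterol demethylase, lay at 7.73 and 7.11 in WT and at 6.98 and 6.67 in dnTGFbRII cells. Its groups did not overlap, and it differed by -0.59 ± 0.26, a 1.51-fold lower level (-0.28 against WT replicate 2 alone). Msmo1, the C4 methyl sterol oxidase of a later step, lay at 7.36 and 6.82 in WT and at 6.76 and 6.72 in dnTGFbRII cells. It differed by -0.35 ± 0.21 without overlap, but by -0.08 against WT replicate 2 alone. Nsdhl, the dehydrogenase that works with Msmo1, lay at 8.32 and 8.60 in WT and at 8.13 and 8.45 in dnTGFbRII cells (-0.17 ± 0.18). Here replicate 2 was the higher array in both genotypes. Hsd17b7, the ketoreductase of the same complex, lay at 6.42 and 5.81 in WT and at 5.87 and 5.89 in dnTGFbRII cells (-0.23 ± 0.24), so that only WT replicate 1 was high.

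The last enzymes of the chain overlapped between genotypes or lay higher in dnTGFbRII cells. Ebp, the sterol isomerase, lay at 7.40 and 7.43 in WT and at 7.55 and 7.47 in dnTGFbRII cells. It was the 1 member with both dnTGFbRII arrays above both WT arrays, a pattern seen in 12.7% of all genes tested, and its difference of 0.09 ± 0.12 was within its standard error. Sc5d, the desaturase, lay at 9.74 and 9.12 in WT and at 9.49 and 9.02 in dnTGFbRII cells. Replicate 1 was the higher array in both genotypes, and the difference of -0.17 ± 0.28 turned to 0.14 against WT replicate 2 alone. Dhcr7, a reductase at the end of the chain, lay at 6.11 and 6.48 in WT and at 6.00 and 6.46 in dnTGFbRII cells (-0.07 ± 0.23), with replicate 2 higher in both. The 7 tested enzymes after lanosterol had a median of -0.17 with 6 negative (-0.08 without WT replicate 1 and -0.48 without WT replicate 2).

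**Figure D2:**
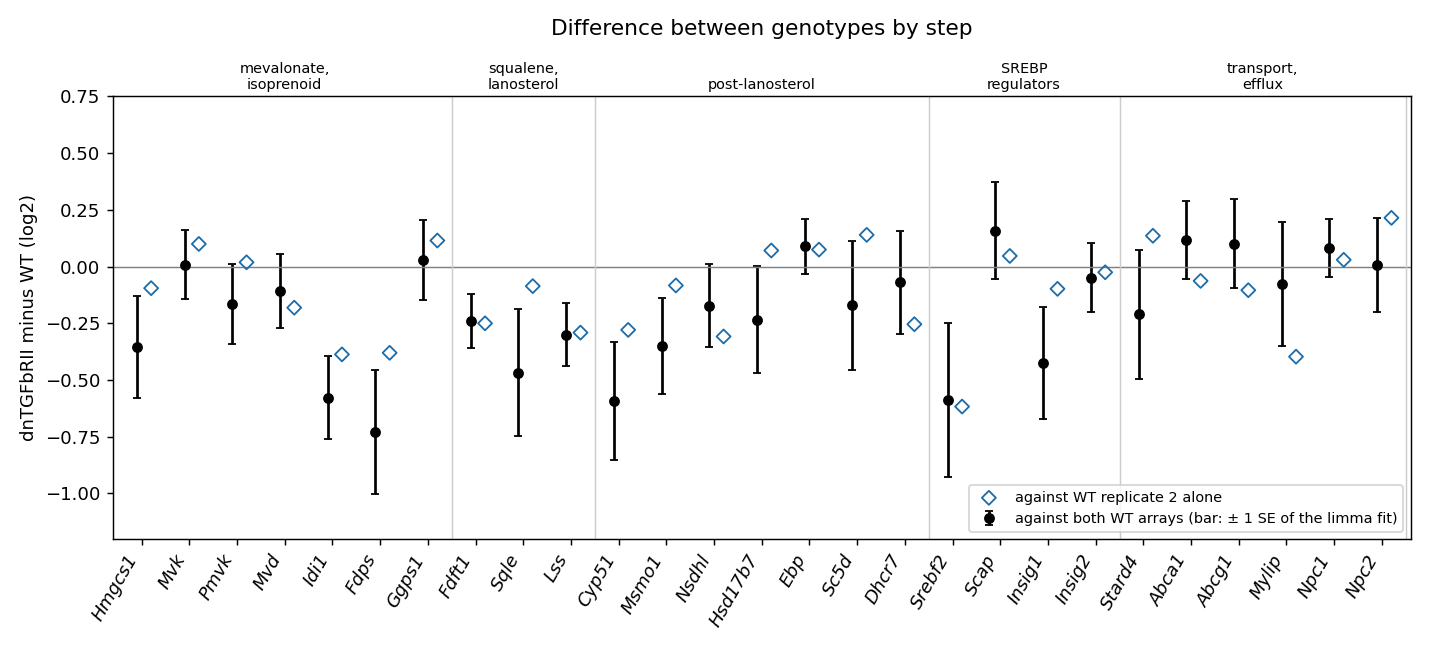
Difference between genotypes (dnTGFbRII minus WT, log2, y axis) for each of the 27 tested genes in order of the pathway (x axis). Filled circles use both WT arrays with bars of 1 SE of the limma fit, and open diamonds set the dnTGFbRII mean against WT replicate 2 alone; Idi1 (-0.58 and -0.39) and Lss (-0.30 and -0.29) are negative in both, while Hsd17b7 and Sc5d change sign.

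Among the SREBP regulators, Srebf2 and Insig1 lay lower in dnTGFbRII cells and Scap and Insig2 overlapped. Srebf2, the SREBP that drives cholesterol genes, lay at 10.40 and 10.46 in WT and at 9.36 and 10.33 in dnTGFbRII cells. Most of its difference of -0.59 ± 0.34 came from dnTGFbRII replicate 1, while replicate 2 was just below the WT arrays. Without dnTGFbRII replicate 1 the difference was -0.11. Insig1, the sterol sensor partner that is itself an SREBP target, lay at 10.95 and 10.30 in WT and at 10.23 and 10.17 in dnTGFbRII cells. WT replicate 1 stood above the other 3 arrays, and the difference of -0.43 ± 0.25 was -0.10 against WT replicate 2 alone. Its paralogue Insig2 lay at 7.34 and 7.29 in WT and at 7.41 and 7.12 in dnTGFbRII cells (-0.05 ± 0.15), so the dnTGFbRII arrays lay on both sides of WT. Scap, the escort protein, lay at 8.46 and 8.68 in WT and at 8.49 and 8.98 in dnTGFbRII cells (0.16 ± 0.21), with overlap. The median of these 4 genes was -0.24, and -0.06 without WT replicate 1.

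Genes that move, store or export sterol showed no common direction, with 2 of 6 negative and a median of 0.04 (-0.02 without WT replicate 1 and 0.19 without WT replicate 2). Stard4, a soluble sterol carrier that SREBP induces, lay at 8.58 and 7.88 in WT and at 8.20 and 7.83 in dnTGFbRII cells (-0.21 ± 0.29). Replicate 1 was the higher array in both genotypes. Abca1, the exporter that loads cholesterol onto apolipoprotein A-I, lay at 7.63 and 7.99 in WT and at 7.98 and 7.88 in dnTGFbRII cells (0.12 ± 0.17). Abcg1, which exports sterol to high-density lipoprotein, lay at 10.33 and 10.74 in WT and at 10.51 and 10.75 in dnTGFbRII cells (0.10 ± 0.20). For both exporters WT replicate 1 was the lowest array, opposite to most enzymes, and against WT replicate 2 alone the differences were -0.06 and -0.10. Mylip, an LXR-induced ubiquitin ligase, lay at 13.67 and 14.32 in WT and at 13.73 and 14.11 in dnTGFbRII cells (-0.08 ± 0.27). The late endosomal pair that releases LDL-derived cholesterol differed by 0.08 ± 0.13 (Npc1) and 0.01 ± 0.21 (Npc2, a sign that turned under both other scalings tried). Npc1 lay between 7.87 and 8.05 on all 4 arrays, and Npc2 between 8.29 and 8.71.

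The larger differences between genotypes were all negative. Differences below -0.3 were found for 7 of 17 enzymes (Hmgcs1, Idi1, Fdps, Sqle, Lss, Cyp51 and Msmo1) and for Srebf2 and Insig1 among the other 10 members, against 5.49% of all genes tested. Against WT replicate 2 alone the count of enzymes was 3 of 17 (Idi1, Fdps and Nsdhl), with Srebf2 and Mylip among the others, against 7.3% of all genes. None of the 27 members had a difference above 0.3 in either form, a size reached by 5.54% of all genes, and by 9.01% against WT replicate 2 alone. The standard errors of the members ran from 0.12 to 0.34 with a median of 0.21, against a median of 0.16 over all genes.

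**Figure D3:**
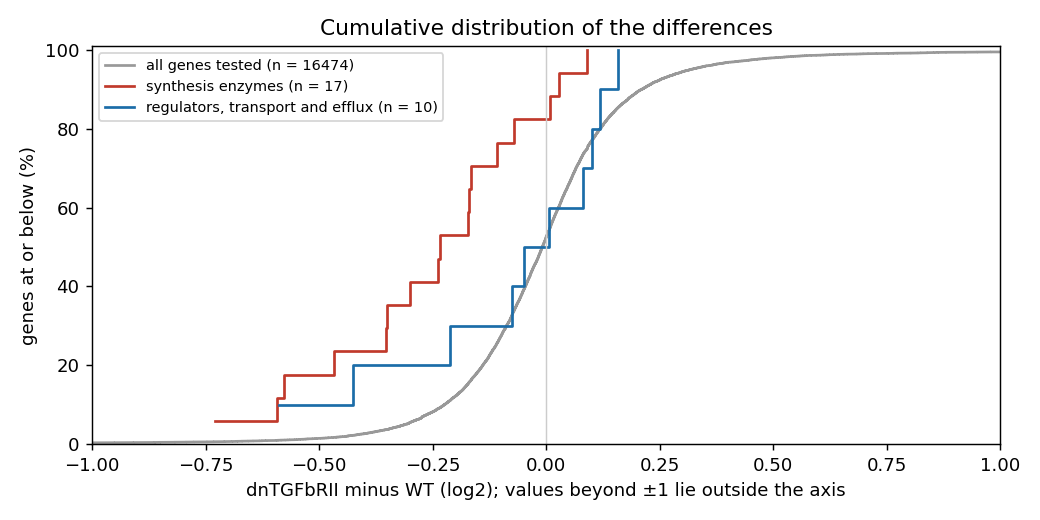
Share of genes (percent, y axis) at or below each difference between genotypes (dnTGFbRII minus WT, log2, x axis) for all 16474 genes tested, the 17 synthesis enzymes and the 10 other members. The curve of the enzymes is displaced to negative values with a median of -0.23, and that of the other members crosses the curve of all genes near 0.

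The WT arrays differed from each other over the same genes. WT replicate 1 exceeded WT replicate 2 by more than 0.5 in 7 of the 17 enzymes and in Insig1 and Stard4, against 6.88% of all genes tested. The 7 enzymes were Hmgcs1, Fdps, Sqle, Cyp51, Msmo1, Hsd17b7 and Sc5d. None of the 17 enzymes had the opposite gap, and none differed by more than 0.5 between the dnTGFbRII arrays. WT replicate 1 was the highest array for 10 of 17 enzymes, against 26.3% of all genes. The enzymes' mean level was 7.22 and 6.95 on WT replicates 1 and 2 and 6.82 and 6.83 on the dnTGFbRII arrays, so that WT replicate 2 lay nearer to the dnTGFbRII arrays than to the other WT array.

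The mean level of dendritic cell markers was also highest on WT replicate 1, followed by WT replicate 2 and then both dnTGFbRII arrays. Of 14 listed, 12 were tested, and 11 of these were highest on WT replicate 1, with a mean level of 9.69 and 8.10 in WT against 7.21 and 7.16 in dnTGFbRII cells. H2-Ab1, a class II chain, lay at 15.72 and 13.40 in WT and at 11.29 and 11.73 in dnTGFbRII cells, and Flt3, a growth factor receptor of dendritic cells, at 7.20 and 5.14 against 3.92 and 3.88. Flt3 lay below the highest background row of every array except WT replicate 1. The part of dendritic cells in the sterol values was not tested, and in sorted bulk RNA fewer cells of a type and less RNA per cell cannot be told apart. Among 3 tested markers of hepatocytes, the main sterol-making cells of the liver, only albumin (Alb) exceeded an array's highest background row. It did so on WT replicate 2 at 6.62, against 4.79 on WT replicate 1 and 4.49 and 4.60 on the dnTGFbRII arrays. Of 11 measured hepatocyte markers, 8 lay below the filter on low values, and the part of hepatocytes in the sterol values was not tested. T cell markers had higher values in dnTGFbRII cells (9 of 10 tested, against 7822 of all 16474 genes tested, median difference 0.64). The exception, Cd3g, was chosen after its values were seen. It lay at 15.90 and 15.81 in WT and at 15.47 and 15.34 in dnTGFbRII cells (-0.45 ± 0.13). The part of T cells in the sterol values was not tested.

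**Figure D4:**
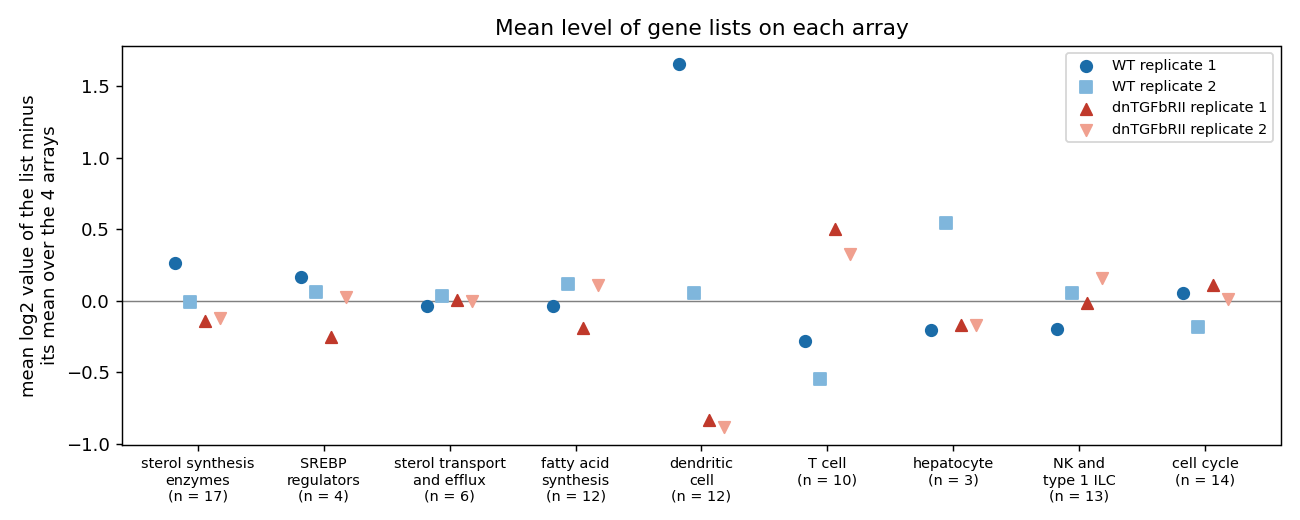
Mean log2 value of each gene list on each array minus the list's mean over the 4 arrays (y axis) for sterol, fatty acid, cell type and cell cycle lists (x axis, with the number of tested genes). WT replicate 1 is highest for the sterol enzymes (7.22), the SREBP regulators (9.29) and the dendritic cell markers (9.69). The hepatocyte list is highest on WT replicate 2, mostly through Alb (6.62 there).

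Other genes of sterol synthesis and uptake were few on the array under a name of their own. Of 15 listed, 6 were tested and 0 passed the limma threshold in either direction. Of the 6, 4 were negative, against 52.5% of all genes tested, with a median of -0.28 (-0.12 without WT replicate 1). Lrp8, a lipoprotein receptor, lay at 5.46 and 5.36 in WT and at 5.10 and 5.11 in dnTGFbRII cells (-0.30 ± 0.12), and the WT arrays were close together. Lipa, the lysosomal lipase that frees cholesterol from LDL, lay at 9.21 and 8.79 in WT and at 8.65 and 8.53 in dnTGFbRII cells (-0.41 ± 0.19, and -0.21 against WT replicate 2 alone). In these 2 of the 6 genes both dnTGFbRII arrays lay below both WT arrays, a pattern seen in 14.5% of all genes tested. The reverse held for 1 of the 6, against 12.7% of all genes. Lrp8 lay below the highest background row of every array except WT replicate 1.

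Fatty acid synthesis is the other arm of SREBP control. Of 16 listed genes 12 were tested and 0 passed in either direction. Of the 12, 9 were negative, against 52.5% of all genes tested, with a median of -0.10, against -0.23 for the sterol enzymes. That order turned without WT replicate 1, where the fatty acid median was -0.16 and that of the sterol enzymes -0.10. There 10 of 12 fatty acid genes were negative, against 50.9% of all genes. The fatty acid median was -0.02 without WT replicate 2 and 0.07 without dnTGFbRII replicate 1. Tmem97, an SREBP-induced membrane protein of sterol handling, had the largest test statistic of the list and lay on the positive side, at 6.48 and 6.22 in WT and at 6.54 and 6.91 in dnTGFbRII cells (0.37 ± 0.19). The counts and medians of this list include Tmem97, although it is not a fatty acid synthesis gene. Elovl1, an elongase of very long chains chosen after its values were seen, was the other gene with both dnTGFbRII arrays above both WT arrays (0.09 ± 0.12). Elovl6, a fatty acid elongase, was the 1 gene lower on both dnTGFbRII arrays. It lay at 9.37 and 9.49 in WT and at 9.21 and 9.24 in dnTGFbRII cells (-0.21 ± 0.13). These patterns, 2 genes above and 1 below out of 12, were seen in 12.7% and 14.5% of all genes tested. Fasn, fatty acid synthase, lay at 10.93 and 11.31 in WT and at 10.39 and 11.24 in dnTGFbRII cells (-0.30 ± 0.33), where replicate 2 was higher in both genotypes; it was chosen after its values were seen. WT replicate 1 was the highest array for 1 of the 12 genes, against 10 of 17 sterol enzymes. The difference between these lists was not tested.

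LXR targets and oxysterol enzymes went both ways. Of 16 listed genes 8 were tested and 0 passed, with 5 negative and a median of -0.10 (0.04 without dnTGFbRII replicate 1 and -0.27 without dnTGFbRII replicate 2). Pltp, which encodes the phospholipid transfer protein, lay at 7.68 and 7.54 in WT and at 7.92 and 8.34 in dnTGFbRII cells (0.52 ± 0.19) without overlap. Cyp27a1, the sterol 27-hydroxylase, lay at 5.92 and 4.68 in WT and at 4.23 and 4.51 in dnTGFbRII cells (-0.93 ± 0.44), with WT replicate 1 far above the rest, and differed by -0.31 against WT replicate 2 alone. Cyp27a1 lay below the highest background row of every array except WT replicate 1. Nr1h3, which encodes LXR alpha, lay between 4.60 and 4.79 on all arrays, close to the filter on low values (4.22). Of 15 tested genes of other sterol transport, 8 were negative with a median of -0.03 (from -0.17 without dnTGFbRII replicate 2 to 0.14 without dnTGFbRII replicate 1). Of 11 tested enzymes that use isoprenoids, 3 were negative with a median of 0.02. In both lists 0 genes passed in limma, and their medians were close to that of all genes tested (-0.01). At an unadjusted p under 0.05, Pltp was the only one of the 52 tested genes of these 5 lists. Over all genes tested, 1.97% were higher and 1.30% lower at that level, and 52.5% had a negative difference.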

How the data were processed

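The deposited table holds log2 expression values of 4 arrays, made by the authors with RMA and the Affymetrix Expression Console, per the submitters' processing notes. For both tools the version is not given in the sources used here. The genome build is not given either, and coordinates were not printed. The values were used as deposited. No pair of arrays shared more than 0.044% identical values.

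Of 72688 rows, 32750 are in the platform annotation: 30604 with 1 symbol and 2146 with several. Symbols that are aliases of 1 Entrez gene were joined through a RefSeq gene table (GRCm38.p6, used for names only), which left 31080 rows naming only 1 gene. Each gene was represented by its row with the highest mean, and it was tested where that mean exceeded 4.217 (the median over all rows). Rows of different genes differ in probe response, so levels were compared between arrays and not between genes. The table has no detection call.

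Genotypes, taken from the labels, were compared by a 2-sided test in limma 3.58.1 (R 4.3.3; linear model with eBayes moderation, prior variance not trended, 2.54 prior and 2 residual degrees of freedom) with Benjamini-Hochberg adjustment over all genes tested and a threshold of 0.05. The fit was tested on simulated data. Lists are described by counts and medians beside all genes tested, with no list test. All 32 members and up to 4 genes of each other list with the largest test statistics could be named, and 3 further pathway genes are not reported here. The members, lists and tests were chosen with earlier results of these data known. The planned search of promoters for motifs was not run, as no sequences were used here. Alternatives were other priors, filters, scalings and rows per gene, a replicate block, a false discovery rate of 0.1, and each array left out.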

Additional observations from a re-analysis of the deposited data

How the results depend on the processing

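No member passed an adjusted p of 0.05 in limma under any setting. Over the leave-one-out fits 0 to 6 genes did, none of them a member, and 0 did at a false discovery rate of 0.1. Genes at an unadjusted p under 0.05 numbered 539, 1283 with no filter on low values, 190 with the filter at the 75th percentile (6.583), 1466 with the replicate block, and 295 to 970 with 1 array left out. Same-numbered arrays deviated together (r = 0.507 over 16474 genes, which are not independent), but what the number marks is not given, so the block is not the main setting. Members at an unadjusted p under 0.05 numbered 2, 1 with a robust prior, 0 with the stricter filter, 4 with the replicate block, and 0 to 6 with 1 array left out. The stricter filter left 18 members, 11 of them negative and 5 lower without overlap. Of all 9232 genes at that filter, 54.9% were negative and 13.9% lower without overlap. It left 8 enzymes, 6 negative and 3 lower without overlap, and a median of -0.35 over 3 mevalonate and isoprenoid enzymes.

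With 1 array left out, taking a single remaining array to vary as the opposite pair does, 13 to 15 members and 10 to 11 enzymes were lower without overlap, as fewer arrays must be in order, and the share over all genes was 29.1% to 37.8%. Medians ran from -0.35 to -0.10 for the enzymes and for the mevalonate step, from -0.48 to -0.083 after lanosterol, from -0.32 to -0.062 for SREBP regulators and from -0.02 to 0.19 for transport and efflux. Signs turned within these ranges for Pmvk (-0.35 to 0.019), Hsd17b7 (-0.54 to 0.071), Sc5d (-0.48 to 0.14), Stard4 (-0.56 to 0.14), Abca1 (-0.063 to 0.30), Abcg1 (-0.10 to 0.31), Mvk (-0.10 to 0.12), Ggps1 (-0.15 to 0.21), Dhcr7 (-0.30 to 0.16), Mylip (-0.40 to 0.25), Npc2 (-0.20 to 0.22), Mvd (-0.26 to 0.047), Scap (-0.086 to 0.40) and Insig2 (-0.19 to 0.094). Npc2 also turned with repeated quantile normalization (-0.007) and median centring (-0.019), and Mvk with median centring (-0.016); the cause was not tested. With the number of arrays this small, no member passed the threshold, whether its difference was below or above its standard error.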

Other observations

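Cell cycle genes were listed because growing cells need sterol, and their part in the sterol values was not tested. Of 14 tested, 12 had positive differences (dnTGFbRII minus WT), against 7822 of all 16474 genes tested. Their mean level was 8.03 and 7.79 on WT replicates 1 and 2, and 8.09 and 7.99 on dnTGFbRII replicates 1 and 2. The median difference was 0.14, and 0 genes were past the limma threshold over all genes tested. At an unadjusted p under 0.05 there were 0. Rrm2, a subunit of ribonucleotide reductase, lay at 5.16 and 4.96 in WT and at 5.30 and 5.29 in dnTGFbRII cells (0.23 ± 0.14). Ccna2, which encodes cyclin A2, lay at 5.36 and 5.16 in WT and at 5.53 and 5.40 in dnTGFbRII cells (0.20 ± 0.14). In both genes the dnTGFbRII arrays were above the WT arrays, a pattern of 3 of the 14 genes and of 12.7% of all genes tested. Rrm2 lay below the highest background row of every array, and Ccna2 below that of every array except WT replicate 1.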
